A study of Mus musculus with 68 samples.

Results

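The 10 genes of the osteoblast lineage, Runx2, Sp7, Alpl, Bglap, Bglap2, Ibsp, Spp1, Dmp1, Phex and Pth1r, were followed across RNA sequencing of cultured long-bone mesenchymal stromal cells of the mouse. They were taken as a list of 10 symbols (osteogenic regulators, bone matrix genes, osteocyte genes and the parathyroid hormone receptor), and all 10 were found among the 27179 gene identifiers of the table. The study asked how loss of 1 Ezh2 allele bears on such cells in young and aged animals. Ezh2 is the catalytic subunit of Polycomb repressive complex 2, a histone methyltransferase.

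Het 12M (6 cultures: S1, S9, S11, S15, S16 and S17) and Het 3M (3 cultures: S8, S10 and S14) came from mice carrying Ezh2fl/+ and Prrx-1-Cre, aged 12 and 3 months. WT 12M (4 cultures: S2, S6, S7 and S13) and WT 3M (4 cultures: S3, S4, S5 and S12) came from Ezh2+/+ mice of the same ages that also carried Prrx-1-Cre, so the recombinase was present in all 4 groups. Prrx1 drives Cre in limb mesenchyme, and cells outside that lineage keep both alleles. The cultures were grown in regular growth medium. No osteogenic induction is described for them, and whether a culture came from 1 animal or several is not stated. The series text speaks of 3 biological samples per group. The labels give 6, 3, 4 and 4, and all 17 were used.

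Osteoblasts arise from mesenchymal progenitors under the control of the transcription factors Runx2 and, downstream of it, Sp7 (osterix). Maturing cells make alkaline phosphatase and a mineral-binding matrix, signal through the parathyroid hormone receptor, and in part become osteocytes, which express Dmp1 and Phex. Osteocalcin and the osteocyte genes are late transcripts of the lineage.

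Levels are given as CPM, read counts scaled to the library size with the trimmed mean of M values (TMM), and a group value as mean ± SD over its cultures. For several members the order of the ages was opposite in the 2 genotypes. Pth1r averaged 35.1 ± 10.2 CPM in Het 12M and 70.1 ± 22.7 CPM in Het 3M, while it averaged 88.6 ± 38.5 CPM in WT 12M and 32.5 ± 6.94 CPM in WT 3M. Sp7, Ibsp, Spp1, Dmp1 and Phex also had a lower mean in Het 12M than in Het 3M and a higher mean in WT 12M than in WT 3M. Single cultures turned some of these: without Het 3M S14 the log2 fold change of Het 12M against Het 3M was 0.55 for Spp1 and 0.16 for Phex. For Sp7, WT 12M against WT 3M was -0.0031 without WT 12M S2, -0.28 without WT 12M S7, -0.049 without WT 3M S4 and -0.0034 without WT 3M S5. With edgeR's quasi-likelihood test and Benjamini-Hochberg adjustment over 14897 genes, none of the 9 members that passed the filter on low counts had an adjusted p under 0.05 in any comparison, and neither did any other gene.

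Depth lay between 13687876 and 28597221 counts per culture. The 12 stromal markers (Pdgfra, Prrx1, Thy1 and others) were detected in every culture, with a summed level of 5402 to 10240 CPM in Het 12M, 11110 to 11291 CPM in Het 3M, 6504 to 13027 CPM in WT 12M and 5915 to 10736 CPM in WT 3M. Ezh2 lay between 8.61 and 25.2 CPM in Het 12M, 8.47 and 12.8 CPM in Het 3M, 7.63 and 35.7 CPM in WT 12M and 9.17 and 14.3 CPM in WT 3M. Its level did not separate the genotypes (log2 fold change -0.16 ± 0.36, adjusted p = 0.924, for Het 12M against WT 12M and -0.19 ± 0.43, adjusted p = 1.00, for Het 3M against WT 3M), and a count over the whole gene does not single out the floxed exons. A few cultures stood apart by markers of other cell types or by low Col1a1. The 14 macrophage and osteoclast markers summed to 138 to 37028 CPM in Het 12M, where S9 was the highest, 263 to 1514 CPM in Het 3M, 246 to 2704 CPM in WT 12M and 237 to 1879 CPM in WT 3M. The 9 Schwann and neural markers summed to 18.7 to 97.0 CPM in Het 12M, 42.9 to 114 CPM in Het 3M, 23.0 to 1251 CPM in WT 12M, where S6 was the highest, and 28.9 to 109 CPM in WT 3M. Het 12M S15 had 1503 CPM of Col1a1, the lowest of all cultures. Xist and Y-linked transcripts went against the labelled sex in WT 12M S2, S6 and S13. WT 12M S7, labelled female, held both, with 81.6 CPM of Xist and a mean of 35.0 CPM over 4 Y-linked genes. Whether that library mixes sexes was not tested. Values that rest on WT 12M come from libraries that are uncertain in this respect, and S7 was among the 2 highest cultures for Ibsp, Spp1, Dmp1 and Pth1r. Het 3M S8 and S10 are labelled male and S14 female. Het 12M S17 is labelled male and all other Het 12M cultures female, so age and sex are partly confounded within Het. WT 12M S2 and S13 and WT 3M S5 and S12 are labelled male, and the other WT cultures female. Het 3M S8 and S10 were closer to each other than any other pair of cultures, with a chi-square of 19.5 per degree of freedom, against 43.5 for the next pair. In cultures measured in bulk, fewer cells of a type and less RNA per cell cannot be told apart.

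In GRCm38.p6 the members lie at chr17:44495987-44814797 (Runx2, minus strand), chr15:102356603-102367035 (Sp7, minus), chr4:137741731-137796384 (Alpl, minus), chrX:157162075-157415286 (Phex, minus) and chr9:110722085-110747145 (Pth1r, minus). Dmp1 (104197575-104214102), Ibsp (104299287-104311472) and Spp1 (104435111-104441053) follow each other on the plus strand of chromosome 5. Bglap2 (88377736-88378701) and Bglap (88383495-88384466) lie side by side on the minus strand of chromosome 3.

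Per kilobase of exon, Spp1 was the most abundant member, with a mean over the 4 group means of 1570 CPM per kb. Ibsp followed at 58.9, Pth1r at 19.3, Alpl at 16.6, Runx2 at 5.89 and Sp7 at 5.20 CPM per kb. Dmp1 (1.54), Bglap2 (1.15), Bglap (0.392) and Phex (0.287) were the lowest. The step from Spp1 to Ibsp was wider than the spread of either, since the lowest Spp1 culture (487 CPM per kb) was above the highest Ibsp culture (269 CPM per kb). Pth1r and Alpl overlapped, as did Runx2 and Sp7, and the 4 low genes overlapped each other.

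**Figure D1:**
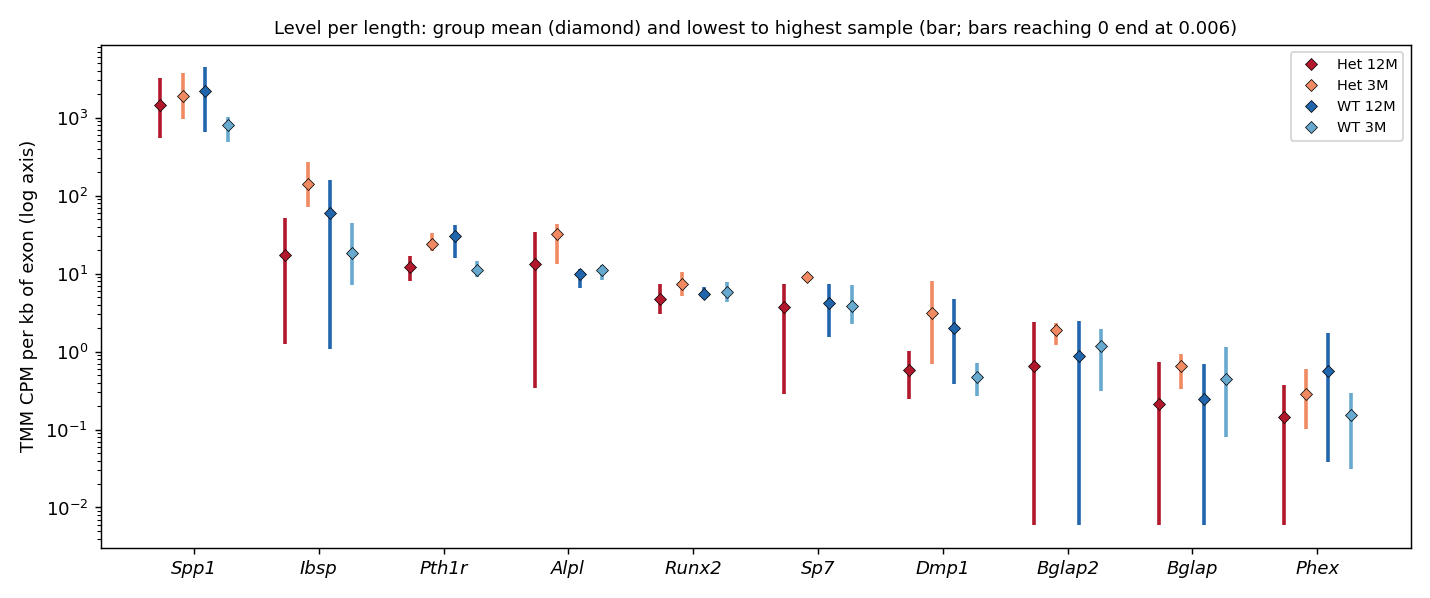
Level of the 10 genes per kilobase of exon on a log axis, with the mean of each group as a diamond and the lowest to highest culture as a bar; bars that reach 0 end at 0.006. Spp1 lies above all others, and the bars of Ibsp, Alpl and Sp7 are long in Het 12M. For Ibsp the bar of WT 12M (1.08 to 158.8 CPM per kb) is longer than that of Het 12M (1.23 to 51.6 CPM per kb).

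Runx2, the transcription factor needed for osteoblast commitment, varied least. It lay at 26.4 (lowest), 40.0 (median) and 64.5 (highest) CPM in Het 12M, at 60.5, 45.2 and 91.8 CPM in Het 3M S8, S10 and S14, at 42.1, 46.4, 59.7 and 46.7 CPM in WT 12M S2, S6, S7 and S13, and at 37.8, 44.2, 68.3 and 56.8 CPM in WT 3M S3, S4, S5 and S12. The 4 groups overlapped. Its largest fitted difference was Het 12M against Het 3M, a log2 fold change of -0.65 ± 0.29 (SE; adjusted p = 0.946), and without Het 3M S14 it was -0.33. Exons of the antisense gene Runx2os1 overlap 5.87% of the Runx2 exons, and without strand their reads cannot be told apart.

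The Runx2 promoter is shown because 3 RUNX core motifs stand in it, the letters bound by Runx2 itself. Sequences are RefSeq windows of GRCm38.p6 from 250 bases before an annotated start to 50 bases after it. Matches to 3 motifs on either strand are in capitals. These are the RUNX core (TGTGGT or ACCACA), the TATA box (TATAAA or TTTATA) and the GC box (GGGCGG or CCGCCC). Windows were found for 8 of the 10 members, Sp7 and Bglap2 having no entry. The Runx2 window is chr17:44814578-44814877, minus strand.
Runx2: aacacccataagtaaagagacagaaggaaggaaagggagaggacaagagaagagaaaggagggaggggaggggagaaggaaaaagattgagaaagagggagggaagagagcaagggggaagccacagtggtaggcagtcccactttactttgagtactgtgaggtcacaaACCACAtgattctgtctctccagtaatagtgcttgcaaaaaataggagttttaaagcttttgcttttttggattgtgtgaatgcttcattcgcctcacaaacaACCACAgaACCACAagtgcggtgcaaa
Its RUNX cores begin 80 bases before and 23 and 31 bases after the start that the window was built on. That start lies inside the Runx2 span given above, so these distances are not from the outermost start of the gene. The RUNX core occurs in 16.8% of 32851 promoter windows of this length, and in 4 of the 13 member windows (1 each of Runx2, Bglap, Spp1 and Dmp1). The cyclic AMP response element (TGACGTCA), which occurs in 1.79% of windows, was in none of the 13 member windows.

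Sp7, the zinc finger factor that acts after Runx2 and is needed for osteoblast formation, was highest in Het 3M. It lay at 0.981, 11.2 and 24.7 CPM (lowest, median and highest) in Het 12M, at 33.3, 29.0 and 30.6 CPM in Het 3M S8, S10 and S14, at 18.1, 5.23, 24.7 and 8.69 CPM in WT 12M S2, S6, S7 and S13, and at 11.1, 7.63, 9.08 and 24.0 CPM in WT 3M S3, S4, S5 and S12. Every Het 3M culture was above every culture of the other 3 groups. The fitted log2 fold change was -1.31 ± 0.69 for Het 12M against Het 3M (adjusted p = 0.946) and 1.26 ± 0.76 for Het 3M against WT 3M (adjusted p = 1.00).

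Alpl encodes tissue-nonspecific alkaline phosphatase, an early marker of mineralising cells. It lay at 1.37, 46.6 and 136.9 CPM (lowest, median and highest) in Het 12M, at 175.2, 164.9 and 54.1 CPM in Het 3M S8, S10 and S14, at 43.6, 26.3, 46.4 and 40.5 CPM in WT 12M S2, S6, S7 and S13, and at 51.5, 45.1, 51.1 and 32.9 CPM in WT 3M S3, S4, S5 and S12. The WT groups were narrow, while Het 12M spread over 2 orders of magnitude, with S15 and S9 lowest. Het 3M S14, high for Ibsp and Dmp1, was the lowest of its group for Alpl. The cultures labelled male, Het 3M S8 and S10 and Het 12M S17 (136.9 CPM), were the highest of the Het cultures. In WT 3M the highest culture, S3, is labelled female. The log2 fold change was 1.54 ± 0.85 for Het 3M against WT 3M (adjusted p = 1.00). It was -1.31 ± 0.76 for Het 12M against Het 3M (adjusted p = 0.946). With labelled sex as a term these were 1.18 and -0.93.

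Ibsp encodes bone sialoprotein, a mineral-nucleating matrix protein. It lay at 2.55, 21.2 and 106.7 CPM (lowest, median and highest) in Het 12M, at 164.0, 148.5 and 557.1 CPM in Het 3M S8, S10 and S14, at 160.1, 4.51, 328.5 and 2.23 CPM in WT 12M S2, S6, S7 and S13, and at 14.9, 18.6, 92.3 and 25.2 CPM in WT 3M S3, S4, S5 and S12. All 3 Het 3M cultures were above all Het 12M and all WT 3M cultures, and WT 12M held 2 high and 2 low cultures. It had the widest range of the members with a count in every culture, 250-fold between the highest and the lowest. The log2 fold change was -3.02 ± 1.20 for Het 12M against Het 3M (unadjusted p = 0.0229, adjusted p = 0.946) and 2.94 ± 1.38 for Het 3M against WT 3M (unadjusted p = 0.0491, adjusted p = 1.00). Without Het 3M S14 these were -2.13 (unadjusted p = 0.129) and 2.06 (unadjusted p = 0.183). The Ibsp promoter, chr5:104299037-104299336, plus strand, is shown because it holds a TATA box 28 bases before the start and no RUNX core, unlike Bglap below.
Ibsp: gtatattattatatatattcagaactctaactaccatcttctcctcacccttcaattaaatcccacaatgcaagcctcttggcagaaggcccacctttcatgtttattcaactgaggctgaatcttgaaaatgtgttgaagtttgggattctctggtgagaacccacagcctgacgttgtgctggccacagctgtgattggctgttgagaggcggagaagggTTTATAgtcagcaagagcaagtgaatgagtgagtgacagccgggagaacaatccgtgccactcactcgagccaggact

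Spp1 encodes osteopontin, a secreted matrix protein that macrophages also make. It lay at 900, 1619 and 5296 CPM (lowest, median and highest) in Het 12M, at 1568, 1632 and 6078 CPM in Het 3M S8, S10 and S14, at 2904, 3029, 7224 and 1070 CPM in WT 12M S2, S6, S7 and S13, and at 1683, 1534, 1296 and 803 CPM in WT 3M S3, S4, S5 and S12. The groups overlapped. The highest Het 12M culture was S9, which also held the most macrophage RNA, and the part of macrophages in that value was not tested. The log2 fold change was 1.42 ± 0.65 for WT 12M against WT 3M (unadjusted p = 0.0442, adjusted p = 0.592). Without Het 3M S14 the fitted difference of Het 12M against Het 3M was 0.55, against -0.38 with it. Of the 50-base windows of Spp1 transcripts, 11.6% also occur in the predicted gene Gm42793, so part of its reads may have been assigned elsewhere.

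Bglap and Bglap2 encode osteocalcin, the hallmark of mature osteoblasts. Few reads were assigned to them. Bglap had 0 to 18 counts per culture, 3 or fewer in 10 of the 17, and was below the filter. Bglap2 had 0 to 33 counts, and was at 0 in Het 12M S15 and WT 12M S6, where 3 counts would correspond to 0.196 and 0.144 CPM. Bglap2 lay between 0 and 1.12 CPM in Het 12M, 0.568 and 1.09 CPM in Het 3M, 0 and 1.15 CPM in WT 12M and 0.148 and 0.909 CPM in WT 3M. The 4 groups overlapped. Of the 50-base windows of their transcripts, 88.2% for Bglap2 and 56.6% for Bglap are shared with each other or with Bglap3, so the split between them is uncertain. The treatment of reads that match more than 1 gene is not given. Such reads may be missing from the counts, so the total level of osteocalcin transcripts is uncertain as well. The third gene of the cluster, Bglap3, had at most 1 count in any culture. The Bglap promoter, chr3:88384417-88384716, minus strand, is shown because Runx2 is known to act through a RUNX site of the mouse osteocalcin promoter.
Bglap: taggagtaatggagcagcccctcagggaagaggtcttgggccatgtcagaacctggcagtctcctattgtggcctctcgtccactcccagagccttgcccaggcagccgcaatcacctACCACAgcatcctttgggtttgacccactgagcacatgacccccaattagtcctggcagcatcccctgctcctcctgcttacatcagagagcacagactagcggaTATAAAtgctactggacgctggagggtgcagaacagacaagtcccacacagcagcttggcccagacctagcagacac
It holds 1 RUNX core, beginning 132 bases before the gene start, and a TATA box 27 bases before it. A match is a description of letters and not a measured site.

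Dmp1, a matrix protein of osteocytes and late osteoblasts, lay at 0.685, 1.26 and 2.83 CPM (lowest, median and highest) in Het 12M, at 1.94, 2.22 and 21.9 CPM in Het 3M S8, S10 and S14, at 5.80, 2.11, 12.9 and 1.04 CPM in WT 12M S2, S6, S7 and S13, and at 1.02, 0.739, 1.97 and 1.42 CPM in WT 3M S3, S4, S5 and S12. The high values came from Het 3M S14 and WT 12M S7 and S2. The log2 fold change was -1.79 ± 0.74 for Het 12M against WT 12M (unadjusted p = 0.0271, adjusted p = 0.539), 2.74 ± 0.90 for Het 3M against WT 3M (unadjusted p = 0.00751, adjusted p = 1.00), -2.46 ± 0.78 for Het 12M against Het 3M (unadjusted p = 0.00632, adjusted p = 0.946) and 2.08 ± 0.85 for WT 12M against WT 3M (unadjusted p = 0.0257, adjusted p = 0.590). Het 3M S14 carried much of the 3-month values: without it the difference of Het 3M against WT 3M was 0.69 and that of Het 12M against Het 3M was -0.39. Phex, the endopeptidase of osteocytes whose loss causes X-linked hypophosphataemia, had 0 to 189 counts per culture. It averaged 0.900 ± 0.992 CPM in Het 12M, 1.78 ± 1.72 CPM in Het 3M, 3.58 ± 4.98 CPM in WT 12M, where S2 held 10.8 CPM, and 0.973 ± 0.856 CPM in WT 3M. The groups overlapped.

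Pth1r, the G protein-coupled receptor for parathyroid hormone and its related peptide, showed the clearest separation. It was measured at 23.6, 24.4, 43.4, 33.3, 49.3 and 36.7 CPM in Het 12M S1, S9, S11, S15, S16 and S17, at 56.5, 57.6 and 96.3 CPM in Het 3M S8, S10 and S14, at 122.3, 46.1, 120.05 and 65.9 CPM in WT 12M S2, S6, S7 and S13, and at 26.3, 29.9, 31.2 and 42.4 CPM in WT 3M S3, S4, S5 and S12. All 6 Het 12M cultures were below all 3 Het 3M cultures, and all 4 WT 12M cultures were above all 4 WT 3M cultures. Only the lowest WT 12M culture, S6, lay within the range of Het 12M. In order of mean the groups ran WT 12M, Het 3M, Het 12M and WT 3M. The neighbours WT 12M and Het 3M overlapped, and so did Het 12M and WT 3M.

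The fitted log2 fold change of Pth1r was -1.33 ± 0.29 for Het 12M against WT 12M (unadjusted p = 0.000266, adjusted p = 0.182) and 1.11 ± 0.34 for Het 3M against WT 3M (unadjusted p = 0.00514, adjusted p = 1.00). It was -0.998 ± 0.311 for Het 12M against Het 3M (unadjusted p = 0.00539, adjusted p = 0.946) and 1.45 ± 0.33 for WT 12M against WT 3M (unadjusted p = 0.000400, adjusted p = 0.378). The interaction, the Het difference between ages minus the WT difference between ages, was -2.45 ± 0.45 (95% confidence interval -3.40 to -1.49). Its unadjusted p of 5.06e-05 was the smallest of the 14897 genes, and its adjusted p was 0.498. The call depended on the tool: DESeq2 gave an adjusted p of 0.0104 for Het 12M against WT 12M, 0.0162 for WT 12M against WT 3M and 0.00462 for the interaction. Over all 29 alternatives the interaction lay between -2.89 and -2.15, with adjusted p between 0.000685 and 1.00, and 3 of them passed 0.05. Without Het 3M S14 it was -2.15, and without WT 12M S2 it was -2.26. Pth1r exons overlap those of Myl3 on the other strand over 3.25% of their length, and Myl3 was at most 0.362 CPM.

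Pth1r has 3 annotated starts with a promoter window, and which of them was used cannot be read from gene counts. The window chr9:110742561-110742860, minus strand, is shown because it holds 4 of the 5 GC boxes found in the 3 windows. GC boxes occur in 35.7% of all windows, and none of the Pth1r windows held a RUNX core.
Pth1r: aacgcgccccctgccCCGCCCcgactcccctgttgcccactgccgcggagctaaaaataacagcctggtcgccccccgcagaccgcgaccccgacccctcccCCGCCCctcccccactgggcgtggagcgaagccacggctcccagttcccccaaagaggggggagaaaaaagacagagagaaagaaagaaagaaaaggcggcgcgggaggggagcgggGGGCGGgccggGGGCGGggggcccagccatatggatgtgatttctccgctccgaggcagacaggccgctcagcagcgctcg

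**Figure D2:**
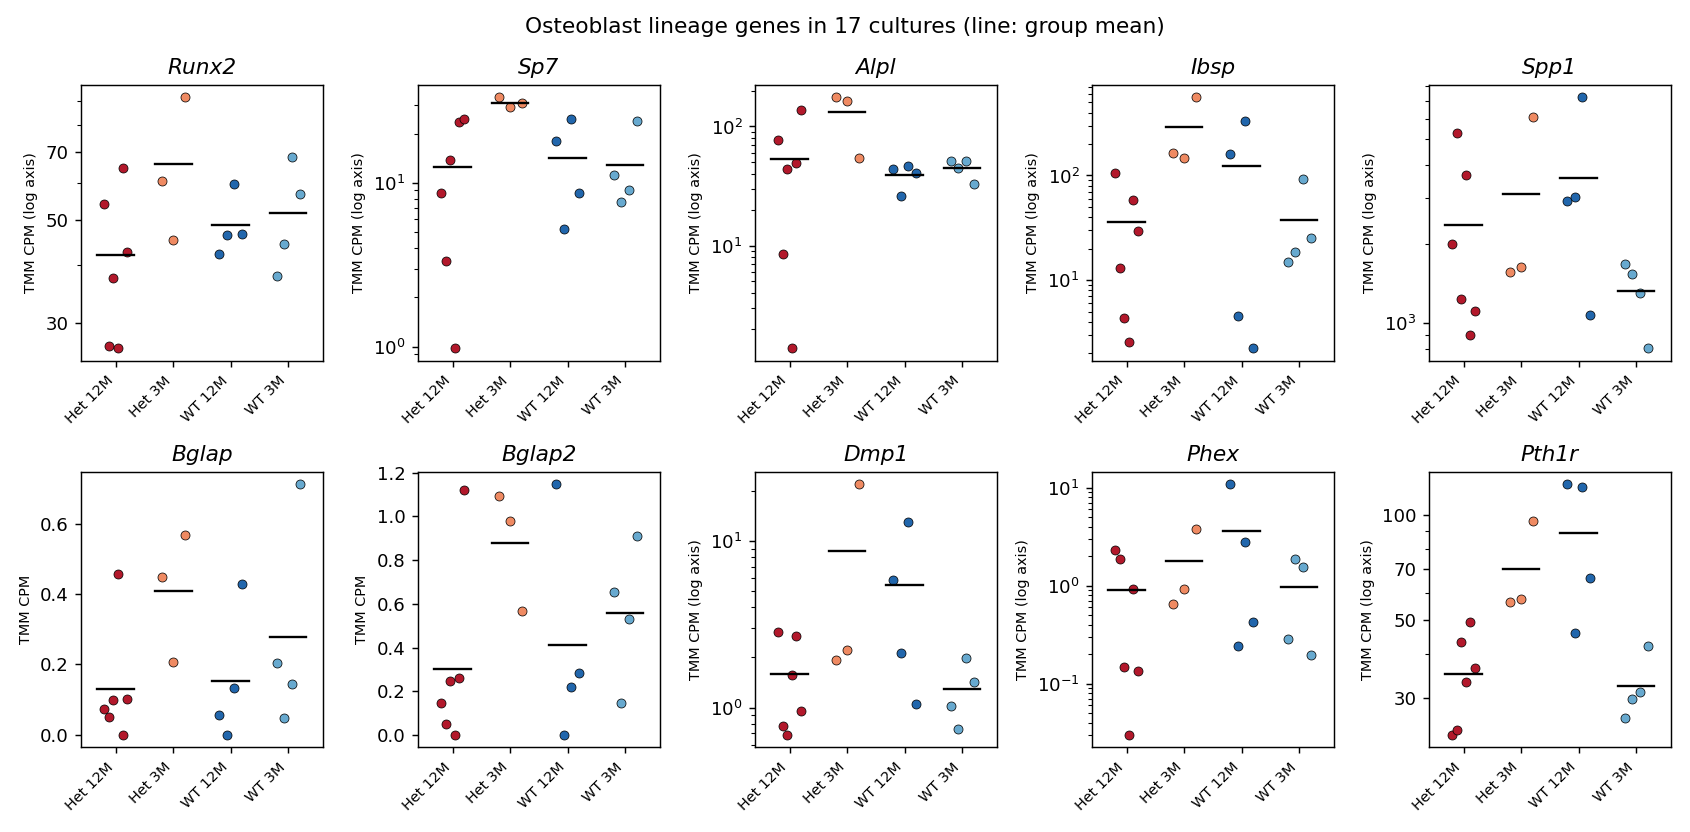
CPM of each of the 10 genes in the 17 cultures, grouped as Het 12M, Het 3M, WT 12M and WT 3M, with the group mean as a line; 8 panels have a log axis, Bglap and Bglap2 a linear one, and the Phex value of 0 in Het 12M S15 is drawn at 0.03. Pth1r in Het 12M (23.6 to 49.3 CPM) lies below Het 3M (56.5 to 96.3 CPM), and in WT 12M (46.1 to 122.3 CPM) above WT 3M (26.3 to 42.4 CPM).

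Taking the 9 tested members as a list, the direction of the fitted values differed between comparisons. For Het 12M against WT 12M, 8 were below 0 and the median log2 fold change was -0.59, against 0.05 over all genes tested. For Het 3M against WT 3M, all 9 were above 0, with a median of 1.22 against -0.02 over all genes. For Het 12M against Het 3M, all 9 were below 0, with a median of -1.31 against 0.07. For WT 12M against WT 3M, 6 were above 0, with a median of 1.42 against 0.04. In the interaction all 9 were below 0, with a median of -1.81 against 0.08. These values share cultures between comparisons, are not independent of each other and rest on members that vary together. Without Het 3M S14 the median was 0.81 for Het 3M against WT 3M and -0.70 for Het 12M against Het 3M. Without WT 12M S2 the median for WT 12M against WT 3M was 0.27, and without WT 12M S7 it was 0.57. Without Het 12M S17 the median for Het 12M against WT 12M was -1.36.

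No member had an adjusted p under 0.05, beside 0% of all genes tested in each of the 5 comparisons. At an unadjusted p under 0.05, 2 of 9 members were lower in Het 12M against WT 12M (Dmp1 and Pth1r; 8.37% of all genes in either direction), 3 were higher in Het 3M against WT 3M (Ibsp, Dmp1 and Pth1r; 1.6%), 4 were lower in Het 12M against Het 3M (Runx2, Ibsp, Dmp1 and Pth1r; 3.28%), 3 were higher in WT 12M against WT 3M (Spp1, Dmp1 and Pth1r; 8.22%) and 3 had a negative interaction (Ibsp, Dmp1 and Pth1r; 5.76%). Of the members, 4 were without overlap and higher in Het 3M against WT 3M (Sp7, Alpl, Ibsp and Pth1r), beside 3.21% of all genes higher and 3.57% lower. In Het 12M against Het 3M, 3 were without overlap and lower (Sp7, Ibsp and Pth1r), beside 1.42% of all genes lower and 0.49% higher. In WT 12M against WT 3M, 1 was without overlap and higher (Pth1r), beside 4.03% higher and 4.07% lower. In Het 12M against WT 12M, 0 were without overlap, beside 0.47% higher and 0.853% lower. Library totals in place of TMM made it 5 in Het 3M against WT 3M, with Dmp1. The share of all genes was not counted under that scaling, so this number has no background beside it.

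**Figure D3:**
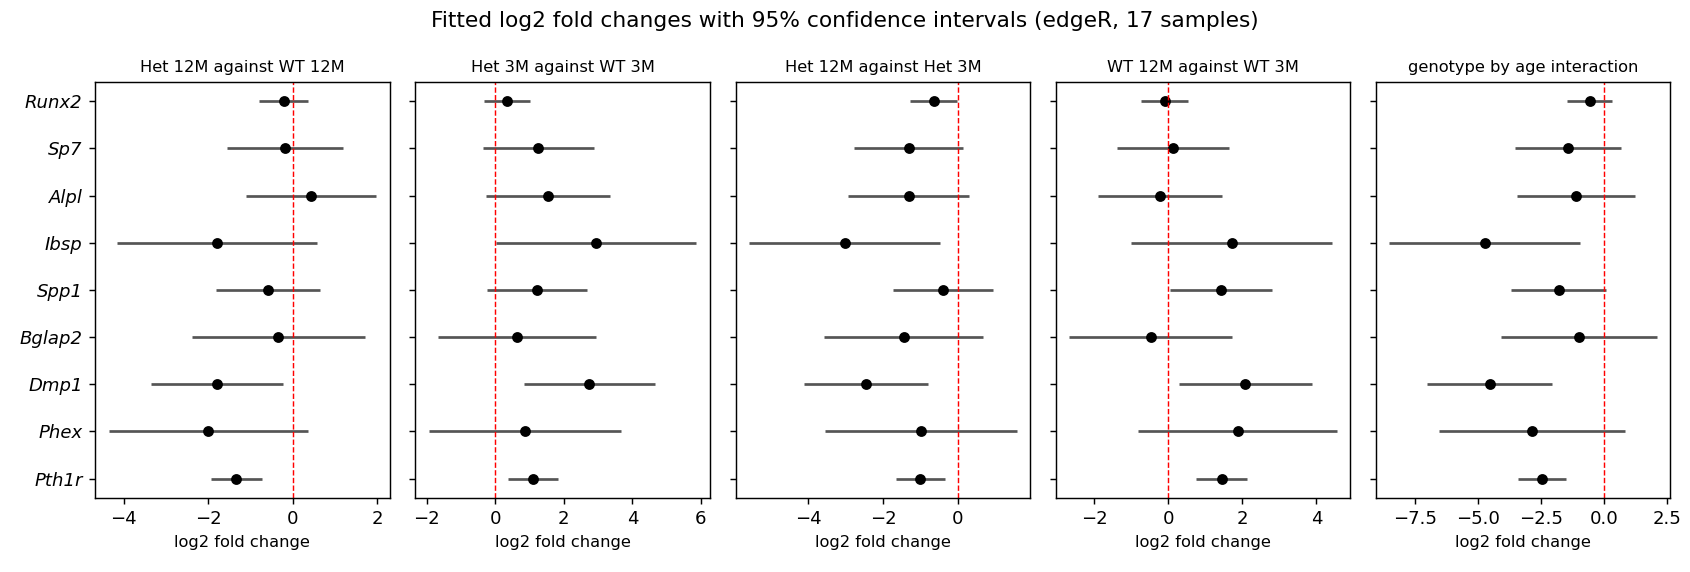
Fitted log2 fold changes (points) with 95% confidence intervals (lines) of the 9 members tested, for the 5 comparisons; positive is higher in the group named first. The intervals of Dmp1 and Pth1r exclude 0 in all 5 panels before adjustment over genes, and those of Sp7, Alpl, Bglap2 and Phex include 0 in all of them.

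The calls came from the edgeR fit over 17 cultures. DESeq2 called 0 members in Het 3M against WT 3M and in Het 12M against Het 3M, beside 0 and 1 of 14897 genes. It called Pth1r (adjusted p given above) in 3 comparisons, with Dmp1 in the interaction (adjusted p = 0.0324). Over all genes it called 106 in Het 12M against WT 12M, 53 in WT 12M against WT 3M and 35 in the interaction. The voom method with sample quality weights called 4 members in Het 3M against WT 3M (Sp7, Alpl, Ibsp and Pth1r), beside 1292 of 14897 genes. Without weights voom called 0 members and 0 genes there. The weighted fit without Het 3M S8 also called 0 members there, beside 0 of 15291 genes. The quality weights were 8.88 for Het 3M S8 and 0.118 for Het 12M S15.

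Markers of cartilage cells differed between the cultures as well. The 11 chondrocyte markers (Sox9, Acan, Comp and others) had a summed level of 2457 to 4036 CPM in Het 12M, 3923 to 17150 CPM in Het 3M, 3102 to 22213 CPM in WT 12M and 2211 to 10669 CPM in WT 3M, and none of the 11 was at 0 in all cultures of a group. The 3 highest cultures by this sum were WT 12M S7 (22213 CPM), Het 3M S14 (17150 CPM) and WT 12M S2 (11088 CPM). They were also the 3 highest for Dmp1 and Pth1r. Comp alone made up most of the sum in WT 12M S7 (18267.5 CPM) and Het 3M S14 (14115 CPM), so the order by the sum rests largely on this 1 gene. By mean log2 CPM of the markers the order was WT 12M S7 (5.87), Het 3M S14 (5.13), WT 3M S5 (4.93) and WT 12M S2 (4.54). The match of the 3 highest therefore holds for the sum only. WT 3M S5, next by the sum at 10669 CPM, had 31.2 CPM of Pth1r, within the range of the other WT 3M cultures. Its Ibsp (92.3 CPM) and Dmp1 (1.97 CPM) were the highest of WT 3M. Of the 11 markers, 6 had a negative interaction at an unadjusted p under 0.05 (Col9a1, Col9a2, Col11a2, Comp, Chad and Snorc). Of all genes, 5.76% were under that p in either direction, and none passed after adjustment. Chad and Snorc were low, with group means of 0.128 to 3.11 and 0.034 to 1.27 CPM. Whether cartilage cells contribute to the members' transcripts was not tested. The 8 endothelial markers summed to 5.75 to 16.98 CPM in Het 12M, 9.21 to 49.0 CPM in Het 3M, 5.86 to 21.4 CPM in WT 12M and 7.47 to 86.7 CPM in WT 3M, with Cldn5 at 0 throughout Het 12M and WT 12M. The 7 adipocyte markers summed to 162 to 1349 CPM in Het 12M, 145 to 254 CPM in Het 3M, 66.6 to 520 CPM in WT 12M and 114 to 292 CPM in WT 3M. The 8 cell-cycle markers summed to 62.9 to 298 CPM in Het 12M, 121 to 152 CPM in Het 3M, 85.7 to 504 CPM in WT 12M and 79.4 to 202 CPM in WT 3M.

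**Figure D4:**
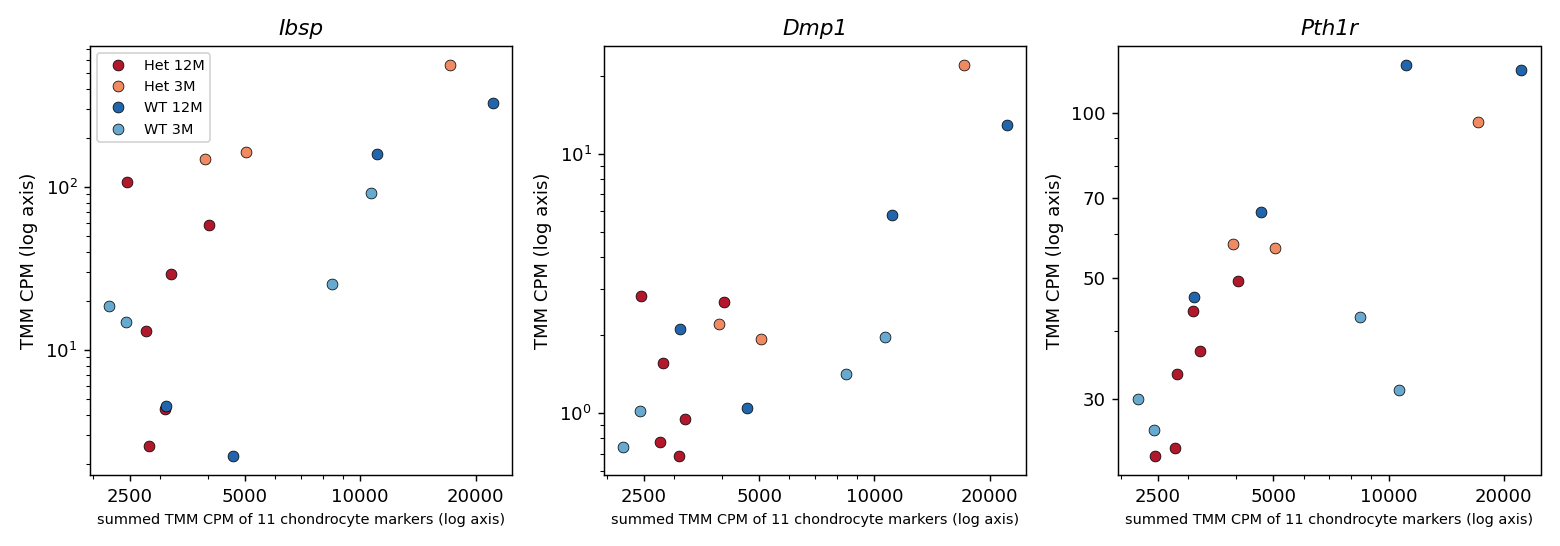
CPM of Ibsp, Dmp1 and Pth1r against the summed CPM of 11 chondrocyte markers in each of the 17 cultures, both on log axes, coloured by group. The 3 cultures farthest to the right, WT 12M S7, Het 3M S14 and WT 12M S2, hold the highest Dmp1 and Pth1r values.

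Members varied together across the 17 cultures. Of 36 pairs, 32 had a Pearson r above 0, with a median of 0.43. With a 2-sided permutation test of 100000 resamples adjusted over the 36 pairs, 14 passed 0.05 by Pearson r and 6 of them also by Spearman rho. The permutation ran over all 17 cultures regardless of group. Its p-values therefore do not separate differences between groups from variation within them. Sp7 and Alpl were closest (r = 0.86, adjusted p = 0.00126; rho = 0.73, adjusted p = 0.0120), followed by Sp7 and Bglap2 (r = 0.80, adjusted p = 0.00126; rho = 0.76, adjusted p = 0.0120). Without the 2 cultures farthest from the median of Sp7 these were 0.55 and 0.71. Ibsp and Dmp1 correlated at r = 0.75 (adjusted p = 0.00261; rho = 0.73, adjusted p = 0.0120; 0.68 without the 2 farthest), and Ibsp and Phex at r = 0.72 (adjusted p = 0.00750; rho = 0.67, adjusted p = 0.0282; 0.71 without the 2 farthest). The remaining pairs that passed by both measures were Sp7 with Ibsp (r = 0.68, adjusted p = 0.00869; rho = 0.75, adjusted p = 0.0120; 0.64) and Alpl with Ibsp (r = 0.56, adjusted p = 0.0393; rho = 0.66, adjusted p = 0.0282; 0.43), the last values being those without the 2 farthest. Dmp1 with Pth1r reached r = 0.73 (adjusted p = 0.00648; rho = 0.55, adjusted p = 0.0741), and 0.54 without the 2 farthest. After subtraction of group means the median r was 0.40. Within-group deviations of Sp7 and Alpl gave 0.81, and those of Ibsp and Dmp1 0.77. Without Het 12M S9 and S15 and WT 12M S6, Sp7 with Alpl gave 0.44, Ibsp with Dmp1 gave 0.83, and 8 of the 36 pairs passed by Pearson r. In that setting Sp7 with Bglap2 gave 0.59, Ibsp with Phex 0.68, Sp7 with Ibsp 0.56 and Alpl with Ibsp 0.33. Bglap2 had 3 or fewer counts in 5 of the 17 cultures, where its log2 CPM rests on few reads. Spp1 with Alpl gave -0.39 (adjusted p = 0.173; rho = -0.12, adjusted p = 0.714).

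**Figure D5:**
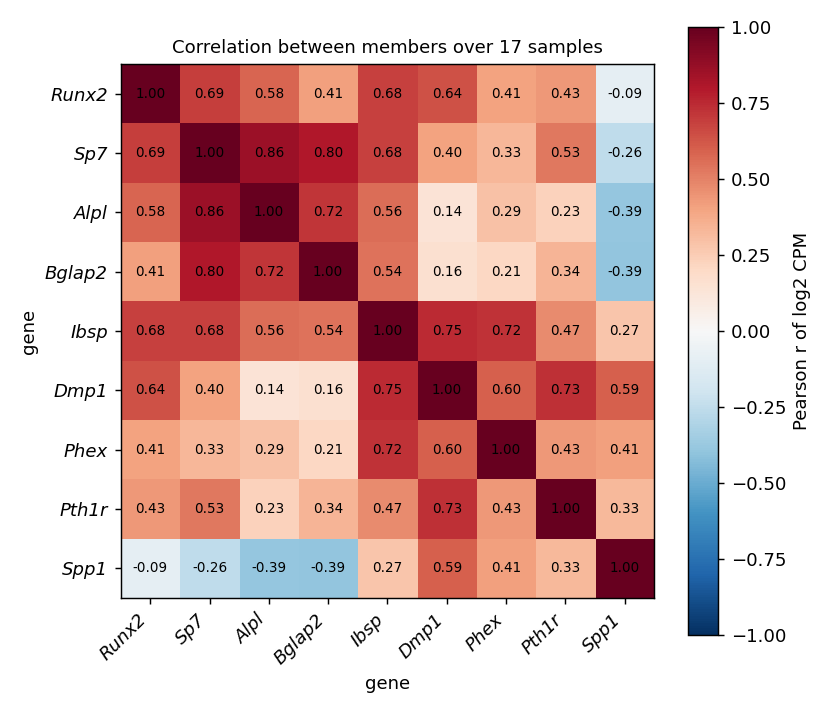
Pearson r of log2 CPM over the 17 cultures for every pair of the 9 members tested. The pairs among Sp7, Alpl and Bglap2 lie between 0.72 and 0.86 and those among Ibsp, Dmp1 and Phex between 0.60 and 0.75, while Spp1 is near or below 0 with Runx2, Sp7, Alpl and Bglap2.

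By Pearson r of log2 CPM over the 17 cultures, the 3 genes most like each member were found among all genes tested. For Pth1r these were Asb16 (0.87), Abcc6 (0.86) and Abcb9 (0.86). For Alpl they were Exoc4 (0.94), Acot6 (0.92) and Arfgap3 (0.91), for Ibsp Snai2 (0.92), Zfp867 (0.89) and Cnksr3 (0.89), for Phex Abca9 (0.92), Gas1 (0.92) and Colec12 (0.89), and for Dmp1 Slc8a3 (0.90), C1ql4 (0.89) and P3h2 (0.88). For Sp7 they were Ptprq (0.91), Tchh (0.90) and Tiam2 (0.87), for Runx2 Wdr19 (0.91), Setd7 (0.88) and Ptpn13 (0.86), for Bglap2 Fam124a (0.89), Cmtm4 (0.85) and Bmp4 (0.84), and for Spp1 Gfra4 (0.84), Sh3d21 (0.84) and Cela1 (0.84). They were picked as the highest among all tested genes with a symbol, members and predicted genes left out, and a high r is then found by selection alone.

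Of 48 other genes of the osteoblast pathway, 41 were tested and 0 had an adjusted p under 0.05. At an unadjusted p under 0.05, 1 was higher and 4 lower in Het 12M against WT 12M (12.2%, beside 8.37% of all genes). In Het 3M against WT 3M, 1 was higher and 2 lower (7.32%, beside 1.6%). In Het 12M against Het 3M, 0 were higher and 3 lower (7.32%, beside 3.28%). In WT 12M against WT 3M, 2 were higher and 1 lower (7.32%, beside 8.22%). The interaction was positive for 2 and negative for 4 (14.6%, beside 5.76%). The median log2 fold change of the 41 was -0.04, -0.17, -0.02 and 0.06 in those 4 comparisons and 0.03 in the interaction, near that of all genes. Col1a1, the main collagen chain of bone, averaged 7929 ± 3789 CPM in Het 12M, 6972 ± 2660 CPM in Het 3M, 9851 ± 3782 CPM in WT 12M and 7903 ± 2855 CPM in WT 3M. Sost, the osteocyte inhibitor of Wnt signalling, was at 0 in every culture.

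Smpd3, a sphingomyelinase needed for bone mineralisation in mice, averaged 4.57 ± 1.77 CPM in Het 12M, 11.8 ± 13.5 CPM in Het 3M, 10.2 ± 2.25 CPM in WT 12M and 4.93 ± 0.982 CPM in WT 3M, and its interaction was -2.42 ± 0.75 (unadjusted p = 0.00497, adjusted p = 0.593). Its Het 3M cultures ran from 3.45 to 27.4 CPM with a median of 4.68 CPM, so the Het 3M mean rested on 1 culture. Ramp2, an accessory protein of calcitonin-family and parathyroid hormone receptors, averaged 15.3 ± 14.6 CPM in Het 12M, 20.4 ± 25.0 CPM in Het 3M, 65.7 ± 76.5 CPM in WT 12M and 3.58 ± 2.01 CPM in WT 3M. Its log2 fold change was 4.198 ± 1.250 for WT 12M against WT 3M (unadjusted p = 0.00390, adjusted p = 0.552) and -4.61 ± 1.57 in the interaction (unadjusted p = 0.00969, adjusted p = 0.680). Dlx3, a homeobox factor of osteoblasts, was lower in Het 12M against WT 12M by fitted value (-2.43 ± 0.74, unadjusted p = 0.00463, adjusted p = 0.346), and so was Enpp1, a pyrophosphate-generating enzyme (-1.09 ± 0.38, unadjusted p = 0.0111, adjusted p = 0.425). Enpp1 was also lower by fitted value in Het 3M against WT 3M (-1.08 ± 0.47, adjusted p = 1.00). The other pathway genes at an unadjusted p under 0.05 were Ifitm5, a membrane protein of osteoblasts (2.58 in Het 12M against WT 12M, at most 1.05 CPM), the phosphodiesterase gene Pde4d (-1.19 in Het 3M against WT 3M), the AP-1 factor Fosl2 (-0.62 in Het 12M against Het 3M), Atf4 (-0.90) and Twist1 (0.47) in WT 12M against WT 3M, and Omd, which encodes osteomodulin (-3.42 in the interaction). Smpd3 was also below that p in Het 12M against WT 12M (-1.16), Het 3M against WT 3M (1.26) and Het 12M against Het 3M (-1.37), as were Ramp2 in Het 12M against WT 12M (-2.10) and Dlx3 in Het 12M against Het 3M (-1.99). Atf4 (0.92) and Pde4d (1.47) were the 2 with a positive interaction, and Twist1 had a negative one (-0.72). Pde4d in the interaction lay outside the 5 smallest p and was named after its value was seen. None of these passed the threshold.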

How the data were processed

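RNA sequencing was measured in 17 biological samples, each deposited as 4 technical replicates that agreed within counting error (chi-square 1.02 to 1.07 per degree of freedom) and were summed. The deposited values are raw read counts per gene, with 27179 Entrez identifiers, and per the submitters' processing notes they were made with Subread and featureCounts on mm10. Versions, annotation and treatment of multi-mapping reads are not given in the sources used here. The TruSeq v2 RNA kit named in the labels' protocols is not stranded. Identifiers were matched to RefSeq symbols of GRCm38.p6 (25275 matched; the rest held 0.573% of counts).

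Counts were filtered with filterByExpr (14897 genes kept), scaled by TMM and fitted with edgeR 4.0.16 in R 4.3.3 (quasi-likelihood F-test, 2-sided, 1 term per group, no sex term because sex-linked transcripts put the labelled sex of WT 12M in doubt). P-values were adjusted by Benjamini and Hochberg over all genes tested, threshold 0.05. They measure the spread between cultures, which may not be separate animals. Log2 CPM used a prior count of 2. Counting floors are 3 counts and cover counting error only. The biological coefficient of variation was 0.512. Exon lengths and shared 50-base windows came from GENCODE transcripts of GRCm38. Levels are relative to the library.

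The alternatives were DESeq2 1.42.0, limma 3.58.1 voom with and without sample quality weights, RLE scaling, library totals, no filter, 1 CPM in at least 3 samples, a labelled sex term, a Y-linked covariate, 2 groups alone, technical replicate 1 alone, and leaving out libraries. Voom without weights, and voom with weights and without Het 3M S8, were chosen after seeing the data. The fits were also run on simulated counts. Their spread between samples was set lower than found here, so performance at this spread was not tested.

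Members, gene lists, tests and the naming rule were chosen with earlier results of these data known. The rule names all 10 members, the 3 genes most correlated with each, Col1a1, Bglap3, and pathway genes with unadjusted p under 0.05 (at most 5 per comparison).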

Additional observations from a re-analysis of the deposited data

Results flagged for a closer look

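Of 30 combinations of a member and a group of 4 or more cultures, 3 held a culture far from the others. For normally distributed values chance alone gives about 1 in 20, and whether these CPM follow that distribution was not tested. Bglap in Het 12M S15 stood at 0.458 CPM, from 7 counts. Bglap2 in Het 12M S17 stood at 1.12 CPM, from 33 counts. Ibsp in WT 3M S5 stood at 92.3 CPM. The difference between ages of Pth1r ran in opposite directions in every culture of the 2 genotypes. Its interaction was -2.45 on the log2 scale, and with edgeR's quasi-likelihood test its adjusted p was 0.498.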

How the results depend on the processing

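All 9 members' directions in the interaction and the calls of 0 members under edgeR held in every edgeR alternative tried, except where a value is given here. DESeq2 called 1 member in Het 12M against WT 12M, 1 in WT 12M against WT 3M and 2 in the interaction. These stood beside 106, 53 and 35 of 14897 genes. Voom with quality weights called 1 member in Het 12M against WT 12M, beside 171 genes. It called 4 in Het 3M against WT 3M, beside 1292 genes. It called 3 in WT 12M against WT 3M and 3 in the interaction, beside 1508 and 939 genes. With weights and without Het 3M S8 it called 2 members in WT 12M against WT 3M and 1 in the interaction. These stood beside 1155 and 141 of 15291 genes. The same fit called 0 members in Het 3M against WT 3M and 0 in Het 12M against WT 12M, beside 0 and 4 genes.

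The members' median for Het 12M against WT 12M was -1.499 with voom weights and -1.42 without the 3 libraries that stood apart, and that for WT 12M against WT 3M was 0.0044 with voom without weights. Leaving out 1 culture, the latter ran between 0.27 (without WT 12M S2) and 1.57. Pairs of members with an adjusted p under 0.05 numbered 8 without the 3 libraries.

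Directions that changed were, without the 3 libraries, Runx2 (0.0097) and Sp7 (0.048) in Het 12M against WT 12M. With voom without weights they were Alpl in Het 12M against WT 12M (-0.51) and Ibsp in WT 12M against WT 3M (-0.074). Bglap2 in Het 12M against WT 12M was 0.24 with voom weights, 0.20 with weights and without Het 3M S8, and 0.18 with a sex term. With the Y-linked covariate Bglap2 in WT 12M against WT 3M was 0.0081. Runx2 in WT 12M against WT 3M was 0.30 with voom weights and 0.29 without Het 3M S8.

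Leaving out 1 culture, Phex in Het 3M against WT 3M ran between -0.30 and 1.43. In Het 12M against WT 12M, Sp7 ran between -0.49 and 0.24, Alpl between -0.12 and 0.69, Bglap2 between -1.47 and 0.90, and Spp1 between -1.005 and 0.0094. In WT 12M against WT 3M, Runx2 ran between -0.21 and 0.074 and Sp7 between -0.28 and 0.61. In Het 12M against Het 3M, Spp1 ran between -0.81 and 0.55 and Phex between -1.56 and 0.16. Bglap2 in the interaction ran between -2.12 and 0.25. The cause of these changes was not tested.

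No paired analysis was possible because the biological sample numbers are not shared between groups, and the technical replicate numbers mark repeat columns of 1 sample. Depth limits Bglap, Bglap2 and Phex, and sequence shared between the osteocalcin genes limits Bglap and Bglap2 further.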
